A study of Mus musculus with 2 samples.

Results

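Among the immune cells sorted from infarcted neonatal mouse hearts, 149 of 10998 barcodes met a rule on transcripts of Rag1, Dntt or Arpp21 and of the T cell receptor complex, and these thymocyte-like cells are described here. The rule counts UMIs (unique molecular identifiers, 1 per captured transcript): at least 1000 genes, at most 10% mitochondrial UMIs, at least 2 UMIs summed over Rag1, Dntt and Arpp21, at least 3 over Cd3d, Cd3e, Cd3g, Trbc1 and Trbc2, under 3 of Cd79a and under 2 of Csf1r. The study compared CD45+ cells from hearts of wild-type (WT) mice with those of mice lacking Lyve1 throughout the body (Lyve1-/-, KO), a hyaluronan receptor of lymphatic endothelium and some macrophages. Both genotypes had a myocardial infarction (MI) by coronary ligation at postnatal day 2 and were sampled 7 days later, at an age of 9 days. Live cells, negative for the dye 7-AAD, were sorted for CD45, a surface protein of nearly all leukocytes, and 1 library of 5′ single-cell RNA-seq was made for each genotype from 5 pooled hearts. With 1 library per genotype there is no replicate and no test, and every interval given covers 95% counting error only. The WT library held 5713 barcodes with 67968938 UMIs and the KO library 5285 barcodes with 61555917 UMIs.

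The heart is not a site of T cell development. T cells arise in the thymus, which lies just above the heart in the chest: precursors without CD4 or CD8 (double-negative cells) rearrange the T cell receptor beta gene with the RAG recombinase, are tested through the pre-TCR, divide, pass through a CD8 single-positive intermediate and become CD4 and CD8 double-positive cells. These stop dividing, rearrange the receptor alpha gene, and die unless selected, after which mature cells lose the RAG transcripts, gain Klf2, S1pr1 and Ccr7 and leave. Rag1 and Rag2 encode the recombinase, Dntt the enzyme that adds bases at the receptor joints, Arpp21 an RNA-binding protein of immature lymphocytes, and Endou an endoribonuclease gene used in thymocytes.

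Most T-lineage cells had either 0 or at least 10 UMIs of the selection genes. Of the 400 WT barcodes that met all other parts of the rule (T-lineage cells), 304 had 0 UMIs of Rag1, Dntt and Arpp21, 6 had 1, 17 had 2 to 9, and 73 had 10 or more. Of the 568 KO T-lineage cells, 503 had 0, 6 had 1, 3 had 2 to 9, and 56 had 10 or more. At the limit itself, 3 WT members and 1 KO member had exactly 2 UMIs. The members' median was 35 UMIs in the WT and 32 in the KO library, with maxima of 376 and 185. All 3 genes were detected together in 67 of 90 WT members (74.4%, 64.2 to 83.1%) and in 52 of 59 KO members (88.1%, 77.1 to 95.1%). The cells with 0 UMIs served as the reference T cells (304 WT, 503 KO). Those of them with Cd4 but no Cd8a or Cd8b1 UMIs (92 WT, 181 KO) and those with Cd8a or Cd8b1 but no Cd4 UMIs (58 WT, 122 KO) are the nearest mature-type cells. The rest had both (7 WT, 35 KO) or neither (147 WT, 165 KO). The whole reference is therefore mixed: Il5, which encodes interleukin 5 and was named after its values were seen, was at 379 CPM in the WT and 255 CPM in the KO reference and had 0 UMIs in its Cd4-only and Cd8-only cells. No barcode sequence of a member was shared between the libraries, which had 9 barcodes in common. A simulated-doublet score marked 74 WT and 48 KO barcodes and 0 members. It marked only 9 of 25 WT and 5 of 15 KO barcodes with at least 3 UMIs of the T cell receptor genes and 2 of Csf1r, so it passed over most barcodes with transcripts of both kinds of cell, and pairs of like cells cannot be seen that way.

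**Figure D1:**
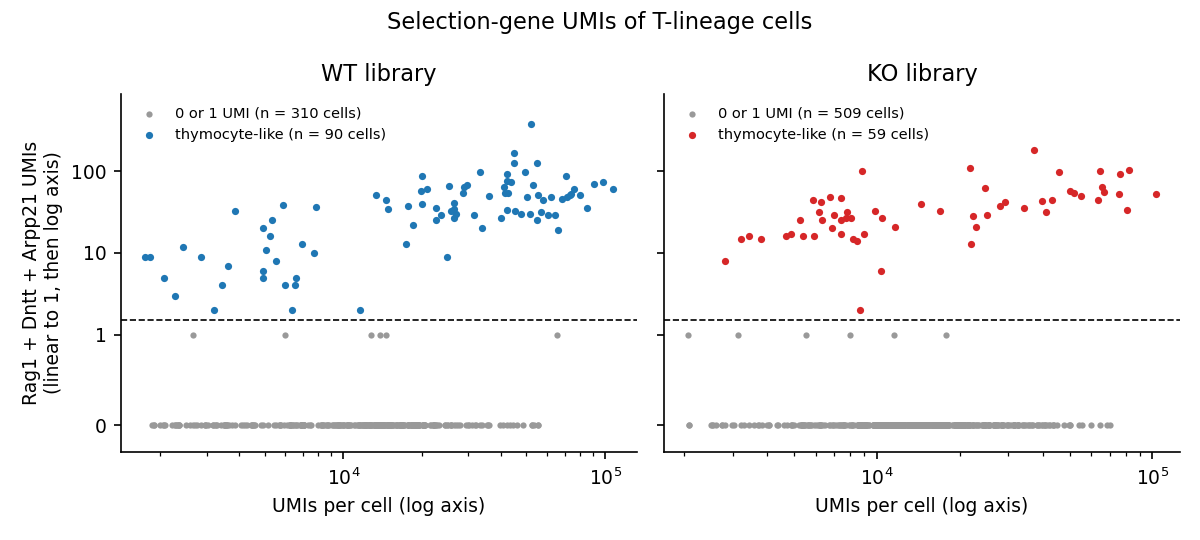
Summed UMIs of Rag1, Dntt and Arpp21 (y axis, linear to 1 and then logarithmic) against total UMIs (x axis, logarithmic) for each T-lineage cell of the WT library (left) and the KO library (right); the dashed line is the limit of 2 UMIs. Most members lie at 10 UMIs or more, and 6 cells in each library have exactly 1 UMI.

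The 5 genes that name the cells were present at high levels (CPM, the UMIs of a gene scaled to the same total in every class). Rag1 was at 245 CPM in members of the WT library, 353 CPM in those of the KO library, and was detected in 72 of 90 and 54 of 59 cells. Dntt was at 464 and 524 CPM, in 75 and 57 cells. Arpp21 was at 623 and 712 CPM, in 90 and 58 cells. These 3 selected the cells, so their levels are a description. Cd8a, which the rule did not use, was at 379 CPM in WT members (58 cells) and 418 CPM in KO members (53 cells), against 71.8 and 89.4 CPM in the whole reference and 315 and 342 CPM in its Cd8-only cells. Its level thus lay near that of other cells with Cd8. Endou, also outside the rule, was at 214 CPM in WT members (72 cells) and 267 CPM in KO members (54 cells), against 0.700 CPM in the WT reference and 0 UMIs in the KO reference. In classes that should lack or nearly lack Rag1, it was detected in 0.389% of WT and 0.0740% of KO macrophages (medians of 20532 and 22350 UMIs, against 26777.5 and 10420 in the members) and in 3.27% and 3.49% of B cells, whose precursors use it too. Ptprc, which encodes CD45, was detected in all 90 WT and all 59 KO members, at 604 and 653 CPM.

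Rag1 lies on chromosome 2 (chr2:101638282-101649501, minus strand, mm10), and Rag2 (chr2:101624718-101632529, plus strand), the other subunit of the recombinase, lies beside it and is transcribed towards it. Rag2 was detected in 28 WT members (35.9 CPM) and 24 KO members (43.4 CPM) and had 0 UMIs in all reference cells. Ptcra (chr17:46755663-46763712, minus strand), the invariant chain of the pre-TCR, was at 100 CPM in WT members (61 cells) and 65.1 CPM in KO members (32 cells), and also had 0 UMIs in all reference cells. Set against the level that 3 UMIs would give in the reference class, Rag2 was at least 51.3-fold higher in WT and at least 121-fold higher in KO members, and Ptcra at least 143-fold and 182-fold. The 0 UMIs of Rag1, Dntt and Arpp21 in the reference are set by its definition, so no fold is given for them. Dntt lies at chr19:41029275-41059525 on the plus strand.

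The 250 bases before the start of 3 of these genes, each at 0 UMIs in the reference (for Rag1 and Dntt by its definition), are shown on the gene's strand, 5′ to 3′ (RefSeq, GRCm38.p6). Capitals mark matches, on both strands, to the palindromic E-box CAGCTG and to a second E-box, CACCTG, which is read as CAGGTG on the opposite strand; E proteins such as the product of Tcf12 bind E-boxes.
Rag1, chr2:101649533-101649782: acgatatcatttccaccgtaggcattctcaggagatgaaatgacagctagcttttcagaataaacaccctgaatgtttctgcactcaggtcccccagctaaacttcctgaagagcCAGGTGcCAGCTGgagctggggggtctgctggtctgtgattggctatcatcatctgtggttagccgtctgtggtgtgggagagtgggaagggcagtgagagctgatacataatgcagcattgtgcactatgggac
Ptcra, chr17:46763713-46763962: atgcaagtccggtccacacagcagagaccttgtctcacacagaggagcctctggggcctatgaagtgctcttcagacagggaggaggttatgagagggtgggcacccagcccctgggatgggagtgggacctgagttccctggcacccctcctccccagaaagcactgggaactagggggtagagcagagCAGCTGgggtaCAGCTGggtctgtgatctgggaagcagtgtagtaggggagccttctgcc
Dntt, chr19:41029025-41029274: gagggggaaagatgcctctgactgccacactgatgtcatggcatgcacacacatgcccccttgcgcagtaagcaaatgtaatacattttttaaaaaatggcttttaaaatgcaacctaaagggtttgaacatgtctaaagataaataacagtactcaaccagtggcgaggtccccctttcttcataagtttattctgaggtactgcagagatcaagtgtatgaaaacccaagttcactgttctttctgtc
The Rag1 window held CAGGTG 135 bases and CAGCTG 128 bases before the start, and the Ptcra window held CAGCTG at 60 and 49 bases. The windows of Dntt, Rag2 and Cd8a held none of these letters, nor the TCF/LEF letters CTTTGA on either strand. Of 32851 promoter windows of that length, 13% held CAGCTG, 17.2% held CACCTG on either strand, and 13.8% held CTTTGA on either strand, so a match is a description and not a site. Arpp21 had 9 start sites, of which 3 held CAGCTG, 4 held CACCTG and 3 held CTTTGA, on either strand. Endou was not matched.

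The share of the cells was small and differed by denominator. Of barcodes within the gene and mitochondrial limits, the members were 90 of 3380 in the WT library (2.66%, 2.15 to 3.26%) and 59 of 2769 in the KO library (2.13%, 1.63 to 2.74%), a difference of -0.532 percentage points with an interval of -1.30 to 0.250 that holds 0. Of T-lineage cells they were 22.5% in the WT (18.5 to 26.9%) and 10.4% in the KO library (8.0 to 13.2%), a difference of -12.1 points (-17.0 to -7.39); the KO library had more reference T cells. Whether genotype, heart or dissection sets these shares cannot be told apart with 1 pool each.

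The sex of the cells set the members apart from the reference T cells, B cells and macrophages of their own library. A cell with Xist UMIs and none of Ddx3y, Eif2s3y, Kdm5d or Uty was called female and the reverse male; Xist is the RNA of the inactive X chromosome and the other 4 genes lie on the Y. Of WT members with a call, 70 were female and 15 male, a female share of 82.4% (72.6 to 89.8%). Of KO members, 3 were female and 47 male, a female share of 6.0% (1.25 to 16.5%). In the WT library the female share was 37.3% of reference T cells, 21.6% of B cells and 31.7% of macrophages. In the KO library it was 37.5% of reference T cells, 39.4% of B cells and 44.5% of macrophages. Against the reference T cells the members stood 45.0 points higher in the WT (33.7 to 53.9) and at a difference of -31.5 points in the KO library (-37.6 to -20.4), in opposite directions. A further 1 WT and 2 KO members carried transcripts of both kinds, and 4 and 7 carried neither.

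**Figure D2:**
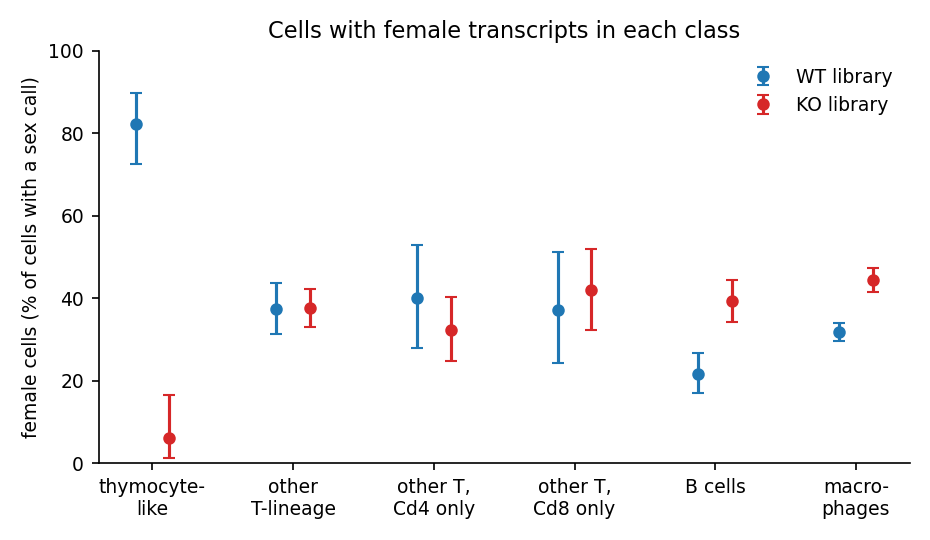
Female cells as a percentage of cells with a sex call (y axis) for each class (x axis) in the WT library (blue) and the KO library (red), with 95% Clopper-Pearson intervals. Thymocyte-like cells are at 82.4% in the WT and 6.0% in the KO library, while the other classes lie between 21.6% and 44.5%.

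By stage, female cells outnumbered male cells in each WT group and the KO pattern lay in the double-positive cells. Among WT members with both Cd4 and Cd8 UMIs 40 were female and 9 male, among those with Cd8 only 13 and 1, and among those with neither 13 and 5. All 41 KO members with both receptors and a sex call were male, an exact interval of 0 to 8.60% female, as were the 3 with neither. The KO members with Cd8 only were 2 female and 3 male, and the single one with Cd4 only was female, too few to set against the reference. The hearts of origin within a pool were not separated here, and the sex of each animal was not given.

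At full depth most members of both libraries had UMIs of both Cd4 and Cd8, while at a matched lower depth this held in the KO library only. Before thinning, 51 of 90 WT members (56.7%) had UMIs of Cd4 and of Cd8a or Cd8b1, 16 had Cd8 only, 4 Cd4 only and 19 neither. Of KO members, 49 of 59 (83.1%) had both, 6 Cd8 only, 1 Cd4 only and 3 neither. Since depth limits detection, each cell was also thinned at random to 4900 UMIs, leaving out 10 WT and 6 KO members below that. Then 32 of 80 WT (40.0%, 29.2 to 51.6%) and 35 of 53 KO members (66.0%, 51.7 to 78.5%) had both, a difference of 26.0 points (8.70 to 41.1). In 20 other random draws the difference ran from 12.9 to 31.0 points, and in 15 of them its interval left out 0. Both receptors were seen in only 7 of 304 WT and 35 of 503 KO reference cells at full depth.

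About as many genes of the double-positive stage were at higher levels in the members than in the reference as lay within the fold, and genes of selected, mature and effector T cells at lower levels. Levels are compared as log2 of the ratio of CPM after adding 10 CPM to each, for genes with at least 50 UMIs, and a gene is counted when this ratio is at least 1 in size, with the same sign, in both libraries. Over all 10879 genes, 969 (8.91%) were higher and 945 (8.69%) lower, 17.6% in all, and the median log2 ratio was 0.09 in the WT and 0.10 in the KO library. With median-of-ratios size factors 704 were higher and 1158 lower (37.8% of those counted higher, against 50.6%), and with 1 CPM added 1552 and 1728. Since the rule set these groups apart, the counts describe the cells and test nothing. The lists were chosen from known biology with earlier results of these data in view.

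Of 20 double-positive genes, 11 were higher and 0 lower (median log2 ratio 1.08 WT, 1.46 KO), and 9 were higher with median-of-ratios size factors. With each cell given equal weight 13 were higher (median 1.60 WT, 1.98 KO), where 879 of all 10879 genes were. Against reference cells with Cd4 only, where 11.3% of genes were higher and 8.56% lower (19.9% in all), 12 were higher and 1 lower. Against those with Cd8 only, where 9.57% were higher and 7.36% lower (16.9% in all), 10 were higher and 1 lower. The absence of Cd8a and Cd8b1 defines the first of these groups and that of Cd4 the second, so Cd8a and Cd8b1 among the 12, Cd4 among the 10, and Cd8b1 as the gene lower than in Cd8-only cells are set by the gates. Cd24a, a surface protein of immature lymphocytes, was at 611 CPM in WT members and 561 CPM in KO members, against 63.9 and 44.2 CPM in the reference. Aqp11, which encodes a water channel, was at 248 and 124 CPM in members. Ccr9, the receptor for the thymic chemokine CCL25, was at 147 and 328 CPM, and Rmnd5a at 231 and 299 CPM. Tcf7, a transcription factor of the T cell lineage, was at 1075 and 1421 CPM, with a log2 ratio to the whole reference of 1.44 and 1.47. Tcf12 was at 512 and 569 CPM. Tcf7 was not counted as higher against Cd4-only or Cd8-only cells, and Tcf12 was counted against Cd4-only but not Cd8-only cells.

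**Figure D3:**
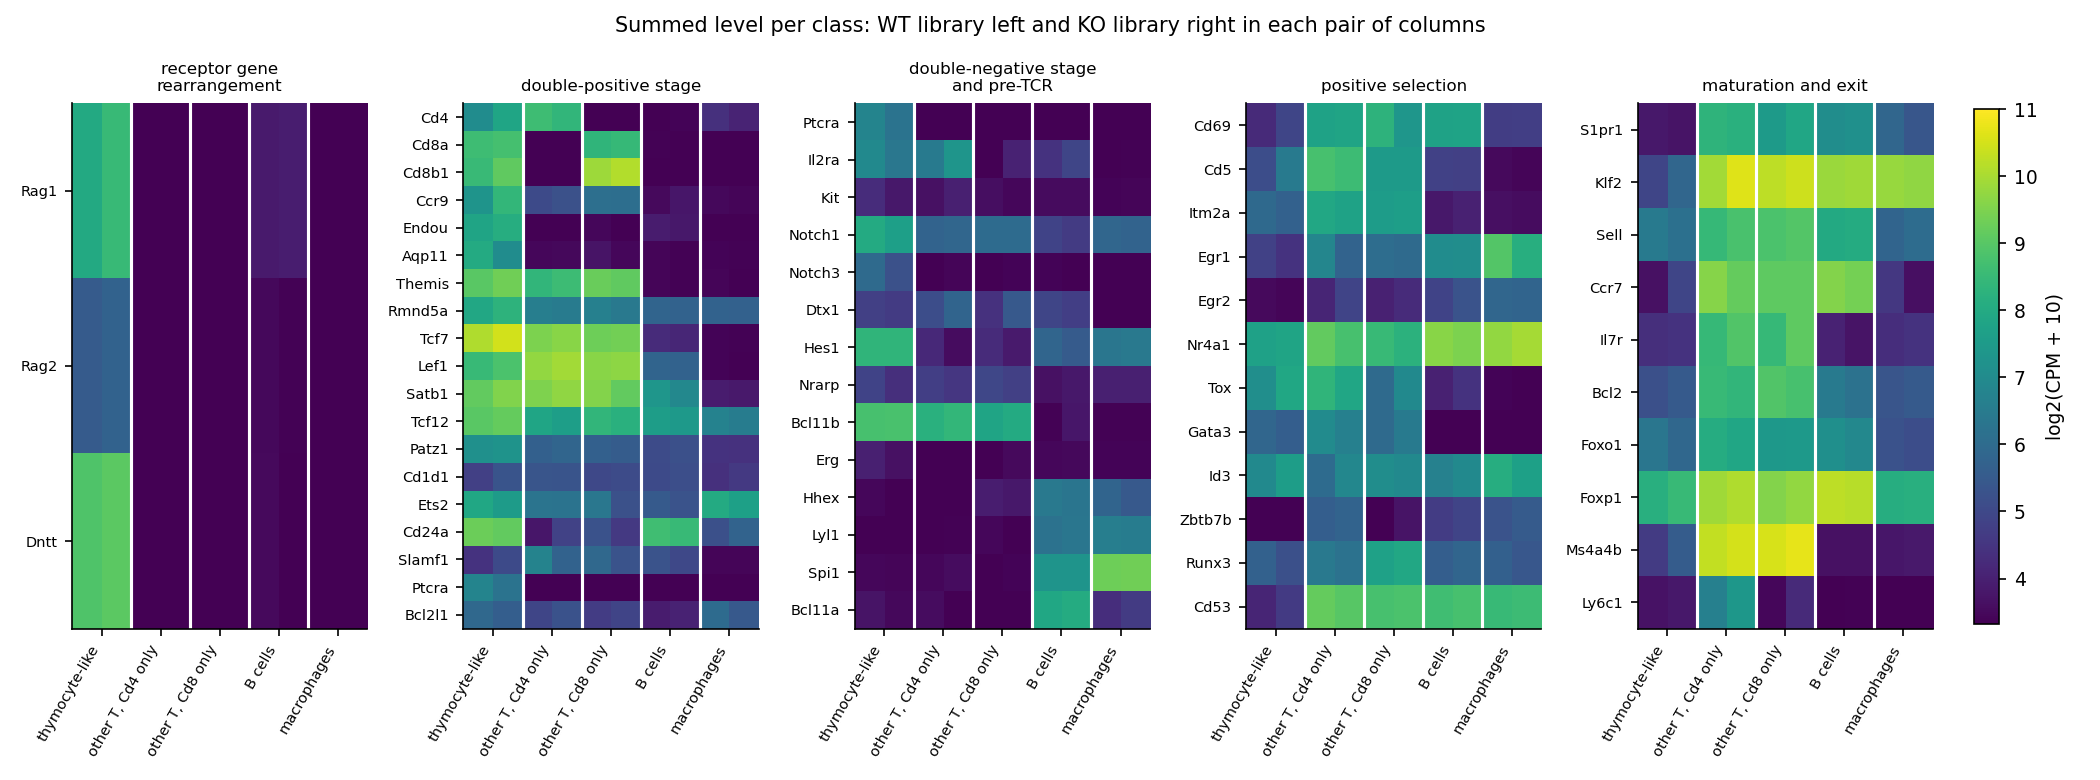
Summed level, as log2 of CPM plus 10 (colour), of the genes of 5 stage lists (rows, 1 double-positive gene not shown) in 5 classes of cells (columns, WT library left and KO library right in each pair). Rag1, Rag2, Dntt, Endou, Aqp11 and Ptcra are brightest in thymocyte-like cells, while S1pr1, Klf2, Ccr7 and Il7r are darker there than in the other T cells.

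Early-stage genes were seen as well. Of the 12 genes of the double-negative and pre-TCR list that passed the UMI filter (of 14), 4 were higher than in the whole reference and 1, Kit, was lower. Against Cd4-only cells 4 of the 9 genes past the filter were higher and 0 lower. Against Cd8-only cells 5 of 8 were higher, Il2ra among them, and 0 lower. Notch1, the receptor that commits precursors to the T lineage, was at 248 CPM in WT members and 193 CPM in KO members, Notch3 at 53.4 and 27.6 CPM, and the Notch target Hes1 at 317 CPM in both. Factors of still earlier precursors were near or at 0, Lyl1 with 0 UMIs in the members of both libraries and Spi1 at 1.01 and 0.658 CPM.

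Most listed genes of selection and exit were at lower levels in the members than in the reference, though their transcripts were present. The positive-selection list summed to 647 CPM in WT members and 857 CPM in KO members, against 3010 and 2644 CPM in the reference, and the maturation and exit list to 510 and 625 CPM, led by Foxp1, against 3832 and 4754 CPM. Of 12 positive-selection genes, 0 were higher and 9 lower (median log2 ratio -1.64 WT, -1.63 KO, the latter -1.50 with genes at 0 set to 3 UMIs). Against Cd4-only cells 7 of 12 were lower, and against Cd8-only cells 6 of the 10 past the UMI minimum, with 0 higher in either. Cd69, an early sign of receptor signalling, was at 8.73 and 20.4 CPM, in 9 cells of each library, and Zbtb7b, which fixes the CD4 fate, had 0 UMIs. Of 10 genes of maturation and exit, 0 were higher and 9 lower (median -3.28 and -3.13), and against Cd4-only and Cd8-only cells 10 of 10 and 9 of 9 were lower. S1pr1, the receptor that lets T cells leave the thymus, was at 4.03 CPM in WT members (6 cells) and 3.29 CPM in KO members (2 cells), against 306 and 282 CPM in Cd4-only and 173 and 224 CPM in Cd8-only reference cells. Ccr7 was at 2.69 and 20.4 CPM, Klf2, a transcription factor of mature T cells, at 20.1 and 48.0 CPM, and Il7r, the receptor for interleukin 7, at 10.4 and 11.9 CPM. In the KO library 18 of 31 Ccr7 UMIs and 3 of 5 S1pr1 UMIs came from the single member with Cd4 and no Cd8 UMIs, and without it Ccr7 was at 8.60 CPM, S1pr1 at 1.32 CPM and Klf2 at 35.7 CPM. After thinning, S1pr1 was detected in 1.25% of WT and 1.89% of KO members, against 72.9% and 65.5% of Cd4-only reference cells.

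Effector genes were almost absent. Of 14, 13 were lower (median -3.86 and -3.79, or -3.79 and -3.61 with genes at 0 set to 3 UMIs) and 0 higher. Against Cd4-only cells 10 of 11 were lower and 1, Gzma, higher, and against Cd8-only cells 11 of 13 were lower. S100a4 had 0 UMIs in all members and was at least 433-fold lower in WT and at least 211-fold lower in KO members than in the reference. Gzmb, Ifng, Cxcr3 and Klrd1 also had 0 UMIs in members. The exception was Gzma, a granzyme, at 342 CPM in WT members (52 cells) and 215 CPM in KO members (29 cells), similar to the whole reference (266 and 207 CPM) but above the 12 and 1.96 CPM of its Cd4-only cells; its Cd8-only cells were at 382 and 155 CPM. Of 6 genes of regulatory T cells and agonist selection 5 were lower, as were 5 of 5 against Cd4-only cells but 0 of 4 against Cd8-only cells, with Foxp3 at 1.01 CPM in WT members and 0 UMIs in KO members. The class I histocompatibility genes H2-K1 and H2-D1, noticed only after the values were seen, were at 112 and 102 CPM in WT members against 2352 and 2059 CPM in the reference, and at 102 and 86.2 CPM in KO members against 2322 and 1978 CPM. At the thinned depth H2-K1 was detected in 35.0% of WT and 13.2% of KO members and in 93.5 to 100% of the cells of each other class.

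Of 16 genes of the receptor complex and its signalling, 3 were higher (Trbc1, Trbc2 and Lck) and 3 lower, Cd2 and Cd5 among them. With median-of-ratios size factors 2 were higher and 4 lower, and with each cell given equal weight 4 and 1. Trbc1 and Trbc2 are part of the rule. Trac, the constant part of the alpha chain, was at 23.8 CPM in WT members and 66.5 CPM in KO members, below the 113 to 166 CPM of the Cd4-only and Cd8-only reference. All 11 immediate early genes were lower, Fos at 101 and 122 CPM in members, though against Cd4-only and Cd8-only cells only 6 and 5 of them were. Of 12 BCL2-family genes 3 were lower and 0 higher; Bcl2, which protects mature T cells from death, was at 26.5 and 35.5 CPM against 349.9 and 319 CPM in Cd4-only cells. Bcl2l1, which does the same at the double-positive stage, was at 50.7 and 38.8 CPM in members against 28.9 and 36.5 CPM in the whole reference, within the fold. Against Cd4-only cells its log2 ratio was 1.0 in the WT and 0.37 in the KO library.

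The 10 genes highest by the smaller of the 2 libraries' ratios were Arpp21, Dntt, Ly6d, Rag1, Endou, Dgkeos, 2610307P16Rik, Syt13, Hist1h1a and Marcks. Ly6d, a surface protein of early lymphocytes, was at 453 and 422 CPM in members, at 1.40 and 0.239 CPM in the reference, and at 1533 and 1562 CPM in B cells. Marcks was at 310 and 313 CPM against 13.1 and 19.1 CPM in the reference. Among the 10 lowest were S100a9, Areg, Ccl5, S100a8, S100a6, S100a4, Gm2682, Ahnak and Il1rl1. Of these, Areg and Il1rl1 lay mostly in reference cells outside the Cd4-only and Cd8-only groups, as did the neutrophil genes S100a8 and S100a9: Areg was at 1461 and 840 CPM in the whole reference and between 0 and 14.1 CPM in those groups, and Il1rl1 at 287 and 279 CPM against 0 to 29.0 CPM.

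The gates differed in genes that they did not use. In the 19 WT members with neither Cd4 nor Cd8, Il2ra, the interleukin 2 receptor of double-negative cells, was at 463 CPM, against 3.4 CPM in the 51 with both. In KO members it was at 489.6 CPM in 3 cells and 16.0 CPM in 49 cells. Trgv2, a receptor gamma segment, was at 185 CPM in WT members and 341 CPM in KO members with neither, and at 0.676 and 1.07 CPM in those with both. Rag2 ran the other way, at 7.23 CPM in WT members with neither and 64.9 CPM in those with both. Endou was likewise at 59.3 and 315 CPM. The 16 WT members with Cd8 only were large (median 59511.5 UMIs, against 25375 in those with both), with Il2ra at 26.4 CPM and Trbc2 at 1417 CPM. The small gates (16 and 19 WT, 6 and 3 KO cells) give these levels as a description.

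Transcripts of the cell cycle were common. A cell was counted as G2/M-rich with at least 3 UMIs of 18 G2/M genes at the thinned depth, and 63 of 80 WT (78.8%, 68.2 to 87.1%) and 29 of 53 KO members (54.7%, 40.4 to 68.4%) passed. Few cells lay near this limit, 3 WT and 1 KO member with 2 or 3 UMIs. The difference was -24.0 points (-39.3 to -7.82), and in 20 other draws it ran from -30.3 to -24.0 points, with all 20 intervals leaving out 0. In the Cd4-only and Cd8-only reference, B cells and macrophages the thinned share was between 4.68% and 11.5%. Without thinning the shares were 81.1% and 50.8% in members and between 15.5% and 28.9% in those classes. All 18 G2/M genes and 15 of 16 S-phase genes were higher than in the whole reference. Among them were Top2a at 1649 and 1396 CPM, Mki67 at 999 and 771 CPM and Rrm2, a subunit of the enzyme that makes deoxynucleotides, at 513 and 593 CPM. Against Cd4-only cells the counts were the same, and against Cd8-only cells 14 of 18 G2/M and 13 of 16 S-phase genes were higher. Summed over the lists, G2/M genes were at 6804 CPM in WT members and 4907 CPM in KO members, and S-phase genes at 4525 and 5435 CPM.

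**Figure D4:**
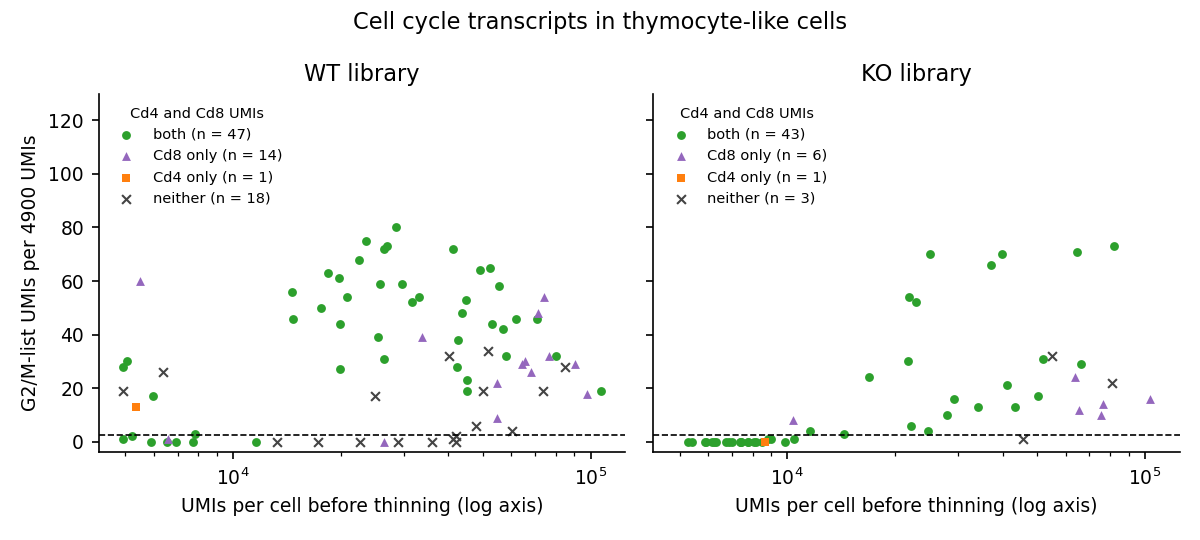
G2/M-list UMIs per 4900 UMIs (y axis) against total UMIs before thinning (x axis, logarithmic) for each member with at least 4900 UMIs, marked by its Cd4 and Cd8 UMIs, in the WT library (left) and the KO library (right); the dashed line is the limit of 3 UMIs. The KO library has a group of 22 small double-positive cells under the limit, where the WT library has 7.

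The G2/M-rich members were the deeper ones in both libraries, while the relation to stage differed. Members with at least 3 G2/M UMIs had a median of 42243 UMIs in the WT and 39792 in the KO library, and those under 3 had 13317 and 7414.5. Among members with both Cd4 and Cd8, 40 of 47 WT cells (85.1%) and 21 of 43 KO cells (48.8%) were G2/M-rich, a difference of -36.3 points (-52.3 to -17.0). Among those with Cd8 only 12 of 14 WT (85.7%) and 6 of 6 KO cells were, and among those with neither 10 of 18 WT (55.6%) and 2 of 3 KO cells. Among male members alone the difference was -21.8 points, with an interval of -41.9 to 7.68 that holds 0, over 14 WT and 44 KO cells. The 22 KO double-positive cells under the limit had Rag1 at 1533 CPM, Rag2 at 148 CPM and Ccr9 at 1385 CPM, against 285 CPM, 50.7 CPM and 316 CPM in the 21 G2/M-rich ones. The 7 WT cells under the limit had Rag1 at 757 CPM against 346 CPM in the 40 G2/M-rich ones. Those 22 cells are small, with a median of 7405.5 UMIs, so a CPM there rests on fewer UMIs.

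Receptor segments, which the 5′ chemistry can read, were varied. A Trbv segment was detected in 77 of 90 WT and all 59 KO members, with 19 and 16 different leading segments. The most common, Trbv12-2, led in 15 WT cells (19.5%) and 9 KO cells (15.3%). Most of a cell's Trbv UMIs came from 1 segment, a median of 98.4% in WT and 94.9% in KO members. Where a Trbj segment was also read, 41 different pairs were found in 44 WT cells, no pair in more than 2 cells, and 23 different pairs in 23 KO cells. A Trav segment was detected in 44 of 90 WT (48.9%) and 46 of 59 KO members (78.0%), against 75.3% and 79.2% of Cd4-only and Cd8-only reference cells. By stage it was read in 33 of 51 WT members with both receptors and 5 of 19 with neither. A Trgv segment was read in 1 of 51 WT members with both and 12 of 19 with neither.

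The alpha locus is rearranged stepwise, starting with Trav segments near the constant gene Trac (chr14:54220521-54224206), so position gives a measure that the rule did not use. Each cell was given its most abundant Trav segment, and ties (6 WT, 1 KO member) were left out. The 42 segments nearest to Trac, of 128, were used by 32 of 38 WT (84.2%, 68.7 to 94.0%) and 39 of 45 KO members (86.7%, 73.2 to 94.9%). In Cd4-only and Cd8-only reference cells they were used by 73 of 106 WT (68.9%, 59.1 to 77.5%) and 150 of 219 KO cells (68.5%, 61.9 to 74.6%). The members' shares were higher in both libraries, but the WT intervals overlap and the KO intervals overlap narrowly. Trav21-dv12 was the most used in WT members (8 cells) and Trav13-4-dv7 in KO members (5 cells). Both names also carry a delta segment number, and use in a delta chain was not separated from use in an alpha chain. A Trdv (receptor delta) segment was detected in 35 of 90 WT and 13 of 59 KO members. In Cd4-only and Cd8-only reference cells it was detected in 6.67% and 6.93%. The build and positions are those of mm10.

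**Figure D5:**
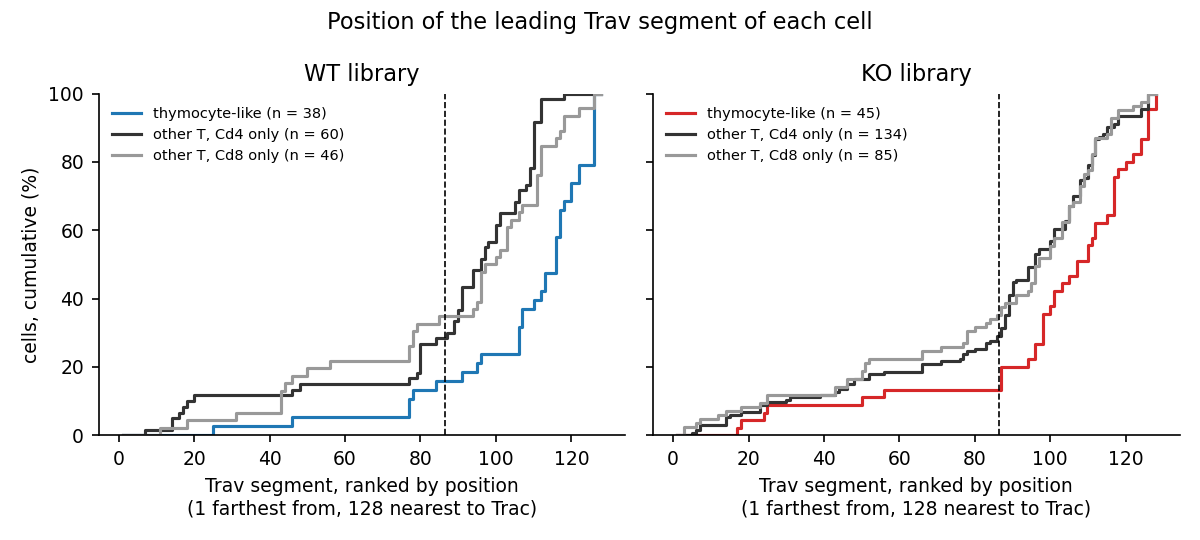
Cumulative percentage of cells (y axis) over Trav segments ranked by position, 1 farthest from and 128 nearest to Trac (x axis), for thymocyte-like cells and for other T cells with Cd4 only or Cd8 only, in the WT library (left) and the KO library (right); the dashed line marks the nearest 42. The curves of thymocyte-like cells rise later, and 84.2% and 86.7% of the cells lie to the right of the line.

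Transcripts of macrophages and cardiomyocytes were low in the members. The thymic stroma list, also low in level, had a higher sum than in the other classes, and 1 gene of it was counted as higher. Of 12 genes of thymic stroma, 9 did not pass the UMI filter, 1 (Cldn4) was higher and 0 lower. Foxn1, the master factor of thymic epithelium, had 0 UMIs in both whole libraries, and Psmb11, a thymic epithelial proteasome subunit, had 1 UMI in the WT and 2 in the KO library. Prss16 had 0 UMIs in members. The list summed to 49.0 CPM in WT members and 45.4 CPM in KO members, against 12.6 to 27.7 CPM in the reference, its Cd4-only and Cd8-only cells, B cells and macrophages of both libraries. At least 1 UMI of the list was detected in 63.3% of WT and 50.8% of KO members, at full depth. Cldn4, which encodes a claudin of epithelial tight junctions, was at 20.8 CPM in WT members (24 cells) and 18.4 CPM in KO members (13 cells), against 0 to 2.09 CPM in those classes. Cldn4 alone thus gave much of the members' sums, and 9 of the 12 genes had 0 UMIs in WT and 8 in KO members. The leading gene was Cldn4 in WT members and Ccl25 in KO members (19.1 CPM, near its level in other T cells). Thymic epithelium lacks CD45, the protein for which the cells were sorted. The macrophage list summed to 91.3 CPM in WT members and 55.3 CPM in KO members, with Apoe leading, against 29430 and 24950 CPM in macrophages, and only Lyz2 of 4 genes past the filter was counted, as lower. Cardiomyocyte genes summed to 2.35 and 0.658 CPM (7 UMIs and 1 UMI), with Tnnt2, Myl2, Myl3 and Nppa at 0. Of the B cell precursor list, only 2 of 10 genes passed the filter and neither was counted; Pax5, Igll1 and Vpreb2 had 0 UMIs in members. Of the 5 plasmacytoid dendritic cell genes past the filter, Tcf4 and Ly6d were higher, and Siglech, a defining marker, had 0 UMIs. That list of 8 summed to 662 CPM in WT members and 563 CPM in KO members, of which Ly6d alone gave 453 and 422 CPM, against 178 and 149.9 CPM in the reference and 756 and 595 CPM in macrophages. Haemoglobin genes summed to 109 CPM in WT members, led by Hbb-bs at 81.6 CPM in 21 cells, and to 0.658 CPM (1 UMI) in KO members. In reference T cells they summed to 48.5 and 20.2 CPM, and in WT Cd4-only cells to 108 CPM. Whether the cells came from thymus taken with the hearts, or from blood or the hearts themselves, was not tested.

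The number of genes past the fold between KO and WT members depended on the weighting of cells and on the CPM added. The check of the labels rests on macrophages, where Lyve1 was at 348 CPM in the WT and 15.4 CPM in the KO library. In members Lyve1 ran the other way, with 2 UMIs in 2 WT cells (0.671 CPM) and 19 UMIs in 13 KO cells (12.5 CPM, 7.53 to 19.5), as in the reference (2.10 CPM in WT, 14.9 CPM in KO). The members therefore do not check the label, and the cause was not tested. Of 7900 genes with at least 50 UMIs, 35 (0.443%) were higher and 33 (0.418%) lower in KO by a log2 ratio of at least 1, 0.861% in all. With each cell given equal weight 157 were higher and 221 lower, and only 26 of the 35 and 23 of the 33 were among them. With 1 CPM added in place of 10, 90 were higher and 92 lower. Of the 35 higher and 33 lower genes with 10 CPM added, 11 were receptor V segments, 7 higher and 4 lower. Another 6 lie on the sex chromosomes, 2 on the X (Xist and Mid1) and 4 on the Y. Xist was at 646 CPM in WT members and 55.9 CPM in KO members (log2 ratio -3.31). Ddx3y, Eif2s3y and Uty were higher, with ratios of 1.75, 1.78 and 1.71, and turned to -0.23, -0.21 and -0.18 when only the 15 WT and 47 KO male members were compared. Dynlt1b, a dynein light chain gene, was at 117 CPM in WT members and 0 UMIs in KO members, and also at or near 0 in every other KO class. Trim12a was likewise at 19.1 CPM and 0 UMIs. Hbb-bs was lower (-3.10), as given above. Hist1h3d, a histone gene, was at 9.40 and 69.1 CPM, and Gm38405 at 6.71 and 57.9 CPM. Gm16867 and Gm47283 were lower in KO, with ratios of -1.97 and -1.85. Gm47283 lies on the Y and ran against the other Y genes, and its ratio in reference T cells was -1.06.

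Among the lists, Ccr9 of the double-positive genes (log2 ratio 1.11), Trac (1.18) and Cd5 (1.34) were higher in KO members. Ube2c, at 860 and 318 CPM (-1.41), was the only G2/M gene counted, and 0 of 16 S-phase genes were. Rag1, Dntt, Arpp21, Cd8a and Endou lay within the fold, at 0.51, 0.17, 0.19, 0.14 and 0.31. No median ratio of these 5 genes to the reference is given, since Rag1, Dntt and Arpp21 chose the members and define the reference. Of the 35 genes higher in KO members, 0 passed the same fold in reference T cells, where 3 of all 7900 genes (0.038%) did. Of the 33 lower, 8 did, where 17 of 7900 (0.215%) did. Sex, cell cycle, stage and depth differ between the 2 sets of members, and genotype cannot be told apart from the pool of animals.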

How the data were processed

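The authors sequenced 5′ libraries (GEM-X v3) of CD45+ cells and deposited raw UMI counts per gene and barcode for 32285 genes, made with Cell Ranger 8.0.1 on mm10 per the labels; the deposited counts were not normalized or filtered by the limits used here. The study's own limits (at least 500 genes, 250 UMIs, at most 30% mitochondrial) would leave 4285 WT and 3464 KO barcodes, of which 99 and 61 met the other parts of the rule. The members and gene lists were chosen with earlier results of these data known. Counts were summed per class and library and given as CPM, and the limits were 50 UMIs, 10 CPM added and a log2 ratio of 1. Named genes were those of the lists, the 10 highest and 10 lowest against the reference, the 5 highest and 5 lowest in KO against WT (each with a UMI in at least 10 cells of the higher class), and the most used segments; H2-K1, H2-D1, Il5, Trgv2 and Mid1 were added after their values were seen. Intervals are exact Poisson or Clopper-Pearson, and Newcombe for differences, at 95%, and cover counting error only. Doublets were scored by the scrublet method (expected 0.4% per 1000 barcodes) and marked barcodes were kept. The code was tested on simulated data. Analyses used Python 3.11.15, numpy 2.4.6, scipy 1.17.1 and pandas 2.3.3. Segment positions came from the GENCODE annotation of GRCm38. Mouse of origin was not analysed here. Alternatives tried were other limits, pseudocounts, scalings, reference cells, thinning draws and subsets of members. Values of a few listed genes are not reported here.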

Additional observations from a re-analysis of the deposited data

Results flagged for a closer look

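The female share of thymocyte-like cells differed from that of reference T cells by 45.0 percentage points in the WT library and by -31.5 points in the KO library. The opposite signs were noted because the same contrast ran in opposite directions in the 2 libraries; the difference between libraries was not tested. Xist followed it, with a log2 ratio of 1.73 to the reference in the WT and -1.49 in the KO library.

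The same was seen for 3 receptor beta segments, again with no test of the difference: Trbv12-1 had log2 ratios of -1.39 in the WT and 2.71 in the KO library, Trbv20 of -1.21 and 1.84, and Trbv29 of -2.44 and 1.09. These 4 genes were all that passed the fold in opposite directions, of 10879.

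Barcodes that the comparisons did not use also carried at least 2 UMIs of Rag1, Dntt and Arpp21. Outside the gene and mitochondrial limits there were 33 in the WT and 5 in the KO library, of which 9 and 2 met the other parts of the rule. Within the limits there were 32 and 19 that failed another part of the rule.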

How the results depend on the processing

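The shares of members, G2/M-rich members and female members, and the KO minus WT differences, kept their direction and stayed within the intervals given above under the study's own limits, 1 or 3 selection UMIs, doublets left out and the other UMI limits tried. The double-positive shares moved from 40.0% in the WT and 66.0% in the KO library to 56.7% and 83.1% without thinning and to 25.0% and 50.9% with 2 UMIs required of each receptor, while their difference stayed between 25.5 and 32.5 points outside the random draws. The count of genes past the fold against the reference was 1914, and 3280 with 1 CPM added in place of 10; with median-of-ratios size factors 704 genes were higher and 1158 lower (37.8% higher, against 50.6%), and the median over all genes moved by -0.142 in the WT and -0.175 in the KO library. The count between KO and WT was 68, and 182 with 1 CPM added, 378 with each cell given equal weight, and, in settings chosen after seeing the data, 399 in members under 3 G2/M UMIs and 139 in male members, where few cells remain and Ddx3y, Eif2s3y and Uty turned to -0.23, -0.21 and -0.18. The causes of the other moves were not tested. With the 64 Trav segments nearest to Trac counted as near, the share of members using them was 94.7% (82.3 to 99.4%) in the WT library, against 82.1% (73.4 to 88.8%) of Cd4-only and Cd8-only reference cells, and 86.7% (73.2 to 94.9%) in the KO library, against 79.9% (74.0 to 85.0%), so both gaps were smaller than with the narrower limit and the intervals overlapped in both libraries. No paired analysis was possible because each genotype has 1 library, and no library could be left out. Depth limits stage calls, since 10 WT and 6 KO members fell below the thinned depth, and low genes, since 3 UMIs over all KO members are 1.97 CPM.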

Other observations

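Barcodes that carried the selection genes but failed the rule were of several kinds. Of the 32 in the WT library, 7 had at least 3 Cd79a UMIs, and all 7 also had at least 3 UMIs of Ebf1, the factor that commits cells to the B lineage. In the KO library this was so for all 13 of 13. At least 3 receptor UMIs together with at least 2 of Csf1r were seen in 5 WT and 2 KO barcodes, and at least 2 Csf1r UMIs with under 3 receptor UMIs in 6 and 1. A further 14 WT and 3 KO barcodes failed on receptor UMIs alone, of which 13 and 0 had under 5000 UMIs and 1 in each library had at least 3 Siglech UMIs.

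The single KO member with Cd4 but no Cd8 UMIs had Ccr7 at 2075 CPM, Klf2 at 2190 CPM, S1pr1 at 346 CPM and H2-K1 at 3343 CPM in 8675 UMIs, with Rag1 and Arpp21 at 0 UMIs. It was 1 of the 3 female KO members. These levels rest on 18 Ccr7, 19 Klf2, 3 S1pr1 and 29 H2-K1 UMIs. It met the rule with 2 Dntt UMIs, exactly the limit.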
